A study of Mus musculus with 10 samples.

Results

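The plakophilins and other genes of the desmosome were followed through 10 libraries from mouse meningioma-like tumors. They are PKP1, PKP2, PKP3, PKP4, DSP, JUP, DSG2, DSC2, DSC3 and PERP, which make 10 of the 16895 genes in each deposited file, written there with human-style capital symbols. PKP2 was chosen by its measured level, which was higher in the NLS-2SA-YAP1 tumors, and the others because they are desmosome genes, which mark meningothelial cells. The values of PKP2 between the constructs are therefore given as a description with no test.

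Desmosomes are button-like junctions that tie the intermediate filaments of neighbouring cells together. Desmogleins and desmocollins are cadherins that meet between the cells, plakoglobin and the plakophilins bind their tails inside the cell, and desmoplakin joins these to the filaments. Arachnoid cap cells and the meningothelial cells of meningioma are joined by desmosomes, which pathologists use as an ultrastructural sign of the tumor.

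All tumors grew in Nestin/tv-a mice that lack Cdkn2a. In these mice the viral receptor tv-a is made under the Nestin promoter, which limits the cells that RCAS virus can enter. DF1 chicken cells producing the virus were injected into the subarachnoid space within days of birth, and the tumors were later frozen whole for RNA. The virus carried NLS-2SA-YAP1, a YAP1 with a nuclear localization signal and 2 serine-to-alanine changes, in 3 libraries, and YAP1-MAML2-v2, a version of a fusion of YAP1 with MAML2, in 7 libraries. NLS-2SA-YAP1 replicate 1 was extra axial and replicates 2 and 3 were extra cranial. YAP1-MAML2-v2 replicates 2 and 6 were extra axial, replicates 1, 3, 4 and 5 were extra cranial, and replicate 7 was intra ventricular. The cell type label of every library is DF1, the chicken producer line, while the organism is mouse. No normal meninges were analysed here.

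The libraries were made from polyadenylated RNA with a stranded kit, and the deposited totals lay between 28001143 and 44544314 per library. YAP1 stood at 421, 592 and 525 CPM, the deposited value per scaled library total, in the NLS-2SA-YAP1 libraries, and between 122 and 174 CPM in the YAP1-MAML2-v2 libraries. MAML2 was lower with NLS-2SA-YAP1, at 9.79 to 20.8 CPM, against 30.6 to 128 CPM with YAP1-MAML2-v2. The labels do not say that the libraries come from separate mice, and the deposited names of YAP1-MAML2-v2 replicates 6 and 7 carry the same number. The p-values below therefore measure the spread between these libraries. In bulk tumor RNA, fewer cells of a type and less RNA per cell cannot be told apart.

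The values are whole numbers but do not look like plain read counts. Genes at 1 were 4.54 to 6.82 times as frequent as genes at 2 in every library, and a gene can stand at 0 or 1 in one library and far above that in another. Of the 10 members, 6 (PKP1, DSP, DSG2, DSC2, DSC3 and PERP) dropped to 0 or 1 somewhere and passed 100 elsewhere. The same was true of 1662 of all 16895 genes, or 9.84%, and of 9.75% of the genes tested. It was true of 463 of the 9871 genes that passed 1000 in some library (4.69%), among them DSP, DSG2, DSC2, DSC3 and PERP. It was true of 52 of the 1648 genes that passed 10000 (3.16%), among them DSP, DSG2 and PERP. For these 6 members each library's value is given and no fold change is read. PKP2, PKP4 and JUP stayed above 1 everywhere.

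The RefSeq promoter windows on GRCm38.p6 run from 250 bases before to 50 bases after a start site. Those of Pkp4, Jup and Dsp were searched because YAP1 acts through TEAD factors, whose core site is GGAATG, or CATTCC on the other strand. Pkp4 has 2 start windows, both on the plus strand, at chr2:59160600-59160899 and chr2:59161619-59161918. Capitals mark GGAATG.
Pkp4 first window: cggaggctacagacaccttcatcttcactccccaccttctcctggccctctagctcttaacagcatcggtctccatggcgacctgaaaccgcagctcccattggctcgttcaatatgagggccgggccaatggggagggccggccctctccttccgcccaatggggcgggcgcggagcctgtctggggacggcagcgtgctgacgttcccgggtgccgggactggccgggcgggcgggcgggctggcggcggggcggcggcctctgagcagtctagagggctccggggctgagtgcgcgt
Pkp4 second window: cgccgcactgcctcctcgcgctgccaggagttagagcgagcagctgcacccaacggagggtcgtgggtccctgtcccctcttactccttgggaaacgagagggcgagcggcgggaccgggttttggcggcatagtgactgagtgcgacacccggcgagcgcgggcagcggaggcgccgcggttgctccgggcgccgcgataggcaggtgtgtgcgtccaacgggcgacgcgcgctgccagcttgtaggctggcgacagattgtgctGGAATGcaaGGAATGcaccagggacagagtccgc
The first window held no match, and the second held 2, starting at positions 267 and 276 from its 5′ end. The windows of Jup and Dsp held none. Pkp1, Pkp2, Pkp3 and Perp had no window among those available and were not searched. No search of Dsg2, Dsc2 or Dsc3 is given here. Of 32851 windows of 300 bases in the table, 4817 held at least 1 match on either strand (14.7%) and 447 held 2 or more (1.36%). A match is a description of the letters.

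Plakophilins are armadillo-repeat proteins of the desmosomal plaque. PKP2 is the plakophilin of heart and simple epithelia, and human PKP2 mutations cause arrhythmogenic cardiomyopathy. In mm10 it lies on chromosome 16, at 16213318 to 16272712. PKP2 stood at 615, 539 and 276 CPM with NLS-2SA-YAP1, replicates 1 to 3 in turn. In YAP1-MAML2-v2 replicates 1 to 7 it stood at 37.7, 65.2, 73.5, 14.1, 65.8, 64.4 and 115 CPM. All 3 NLS-2SA-YAP1 libraries lay above all 7 others, and the lowest of them was 2.40 times the highest YAP1-MAML2-v2 library, which was the intra ventricular tumor.

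PKP2 averaged 477 ± 178 CPM with NLS-2SA-YAP1 (SD, n = 3) and 62.2 ± 31.2 CPM with YAP1-MAML2-v2 (SD, n = 7), a ratio of means of 7.66. The ratio was 8.53 among extra cranial tumors alone, with means of 407 CPM in 2 NLS-2SA-YAP1 libraries and 47.8 CPM in 4 YAP1-MAML2-v2 libraries. Among extra axial tumors it was 9.49, from 1 NLS-2SA-YAP1 library and 2 others. The log2 fold change with region as a term, which sets the intra ventricular library apart, was 3.14, and 2.89 to 3.39 over the alternatives tried. A complete separation with NLS-2SA-YAP1 on top was found for 508 of the 13707 genes tested, which is 3.71%, and PKP2 was the only tested member among them. The opposite separation, found for 3.03% of genes, held for no member. In NLS-2SA-YAP1 replicate 1 it ranked 148 of 16895 genes by level.

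Markers of other cell types varied between the libraries, and the summed levels given here overlapped between the constructs. Of the muscle, heart, choroid plexus and ependyma markers tested between the constructs, edgeR called 0. DESeq2 called 1, of the choroid plexus and ependyma list. Over all genes tested edgeR called 0.0146% and DESeq2 5%. The summed level of 7 muscle markers was 1.03, 71.3 and 247 CPM with NLS-2SA-YAP1, in replicate order, and 0.693 to 49.0 CPM with YAP1-MAML2-v2. The highest PKP2 was in replicate 1. Without NLS-2SA-YAP1 replicates 2 and 3 and YAP1-MAML2-v2 replicate 3 the log2 fold change of PKP2 was 3.16. That fit leaves replicate 1 as the only NLS-2SA-YAP1 library, so it describes a single tumor. The summed level of 6 choroid plexus and ependyma markers was 80.8 to 249 CPM with NLS-2SA-YAP1 and 26.3 to 86.8 CPM with YAP1-MAML2-v2. Outside the ventricle most of it was AQP1, a water channel of several cell types (log2 fold change 1.54, SE 0.45, edgeR adjusted p = 0.228). In the intra ventricular library AQP1 was at 1.94 CPM and FOLR1 at 30.8 CPM. FOLR1 was also at 19.1 CPM in NLS-2SA-YAP1 replicate 2 and at 14.5 and 7.75 CPM in YAP1-MAML2-v2 replicates 2 and 6. In the other 6 libraries FOLR1 was at 0 or 1. KL was at most 6.72 CPM, FOXJ1 at most 1.91 CPM and TTR at most 1.25 CPM, and KCNJ13 was at 0 or 1 throughout. Of 5 heart markers, MYH6 was at most 0.758 CPM and NPPA at most 0.202 CPM, and TNNT2 reached 201 CPM with NLS-2SA-YAP1 and 479 CPM with YAP1-MAML2-v2. The summed heart markers were 2.70 to 202 CPM with NLS-2SA-YAP1 and 3.45 to 479 CPM with YAP1-MAML2-v2. The part of any of these cells in the PKP2 level was not tested.

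**Figure D1:**
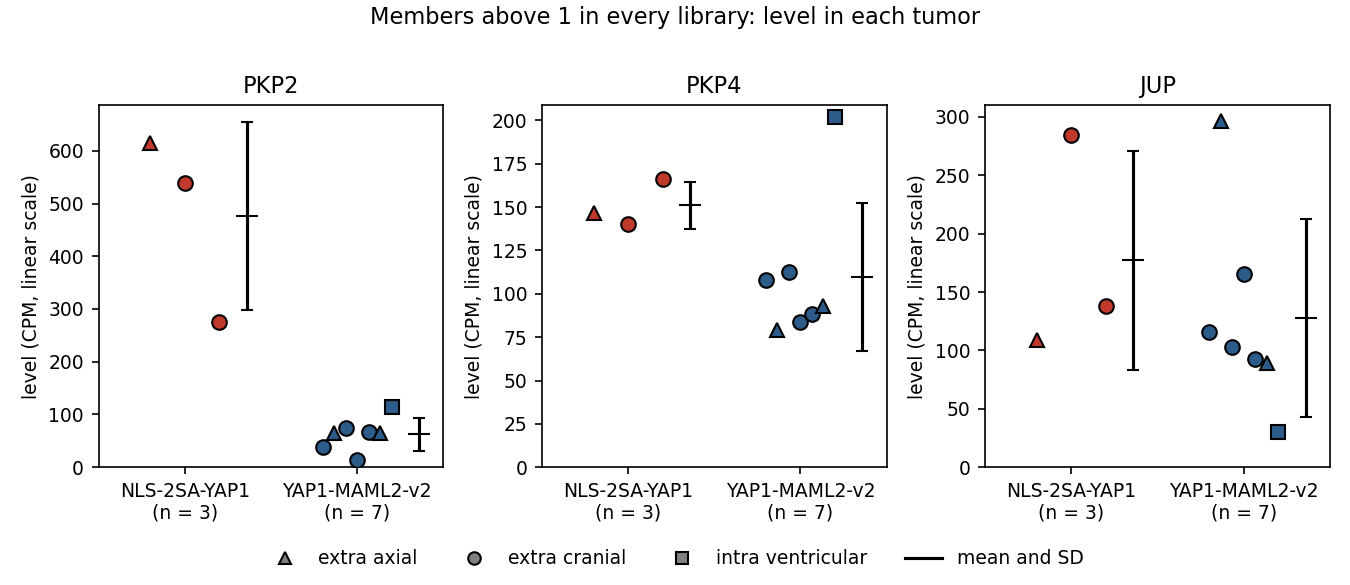
Level in CPM (linear axes) of PKP2, PKP4 and JUP in each library, NLS-2SA-YAP1 (red, n = 3) left of YAP1-MAML2-v2 (blue, n = 7), with the mean and SD as a line and shapes for the region. PKP2 does not overlap between the constructs, PKP4 overlaps through the intra ventricular library at 202 CPM, and JUP overlaps widely.

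PKP4, also called p0071, is a plakophilin relative found at both desmosomes and adherens junctions, and its gene lies on chromosome 2 at 59160850 to 59355208 (mm10). It stood at 146, 140 and 166 CPM with NLS-2SA-YAP1, replicates 1 to 3 in turn. In YAP1-MAML2-v2 replicates 1 to 7 it stood at 108, 79.2, 112, 83.9, 88.6, 92.9 and 202 CPM. The intra ventricular library, replicate 7, was the highest of all 10, and outside the ventricle all 3 NLS-2SA-YAP1 libraries were above all 6 others, as in 4.73% of the genes tested.

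PKP4 averaged 151 ± 13.6 CPM with NLS-2SA-YAP1 (SD, n = 3) and 110 ± 42.5 CPM with YAP1-MAML2-v2 (SD, n = 7). Outside the ventricle the ratio of means was 1.60, with 1.56 within the extra cranial and 1.70 within the extra axial tumors. The log2 fold change with region as a term was 0.68 (SE 0.25). There the intra ventricular library has its own term, so the contrast sets 3 libraries against the 6 outside the ventricle. By edgeR's quasi-likelihood test the unadjusted p was 0.0204 and the adjusted p 0.30, so the difference did not pass the threshold of 0.05. With no region term, and thus all 7 YAP1-MAML2-v2 libraries, the log2 fold change was 0.46 (edgeR unadjusted p = 0.178, adjusted p = 0.571). The adjusted p lay between 0.119 and 0.638 over the alternatives.

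The balance of the plakophilins differed between the constructs on the scale of CPM per kb of exon. PKP2 was 4.47, 4.08 and 1.77 times PKP4 in the 3 NLS-2SA-YAP1 libraries, and 0.179 to 0.877 times PKP4 in the 7 YAP1-MAML2-v2 libraries. PKP2 was thus the more abundant in 3 of 3 libraries with NLS-2SA-YAP1, and PKP4 in 7 of 7 with YAP1-MAML2-v2. PKP2 made 63.8% to 81.6% of the summed plakophilin level with NLS-2SA-YAP1 and 15.1% to 46.6% with YAP1-MAML2-v2. With the longest transcript as the length, PKP2 was above PKP4 in 3 of 3 NLS-2SA-YAP1 libraries and in 4 of 7 YAP1-MAML2-v2 libraries, so the side of the balance in YAP1-MAML2-v2 tumors rests on the length used. This balance contains the PKP2 values that chose the gene and was not tested.

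PKP1, a plakophilin of stratified epithelia, and PKP3 were near 0. PKP1 had deposited values of 59, 8 and 2 in NLS-2SA-YAP1 replicates 1, 2 and 3 and of 34, 9, 144, 18, 11, 2 and 0 in YAP1-MAML2-v2 replicates 1 to 7. Its highest level was 3.64 CPM in YAP1-MAML2-v2 replicate 3. PKP3 did not exceed 0.421 CPM anywhere, with deposited values between 1 and 15, and was not tested.

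Desmoplakin (DSP), the plakin that ties the plaque to intermediate filaments, ranged from 0 to 7315 CPM. The gene lies on chromosome 13 at 38151294 to 38198577 (mm10). Its deposited values were 0, 214118 and 66144 in NLS-2SA-YAP1 replicates 1, 2 and 3. In YAP1-MAML2-v2 replicates 1 to 7 they were 69902, 23707, 26607, 1, 16764, 30174 and 16079. DSP was thus at 7315 CPM in NLS-2SA-YAP1 replicate 2, where it ranked 4 of 16895 genes, and was listed at 0 in replicate 1 of the same construct, the library with the highest PKP2. YAP1-MAML2-v2 replicate 4, where DSP was listed at 1, had the lowest PKP2. In the 8 remaining libraries DSP lay at 381 CPM or above.

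Plakoglobin (JUP) is the armadillo protein shared by desmosomes and adherens junctions and is a relative of beta-catenin. Its gene lies on chromosome 11 at 100368958 to 100397763 (mm10). It stood at 109, 284 and 138 CPM with NLS-2SA-YAP1, replicates 1 to 3 in turn. In YAP1-MAML2-v2 replicates 1 to 7 it stood at 116, 297, 103, 165, 93.1, 89.7 and 29.7 CPM. Each construct had 1 library well above its others, and the intra ventricular library was the lowest. JUP averaged 177 ± 93.8 CPM with NLS-2SA-YAP1 (SD, n = 3) and 128 ± 84.6 CPM with YAP1-MAML2-v2 (SD, n = 7). The log2 fold change of JUP, with the intra ventricular library set apart by the region term, was 0.35 (SE 0.49). It was within the spread between libraries (edgeR adjusted p = 0.820). Its sign turned to -0.21 without NLS-2SA-YAP1 replicate 2. It turned to -0.90 without the 3 libraries that hold muscle transcripts (NLS-2SA-YAP1 replicates 2 and 3 and YAP1-MAML2-v2 replicate 3).

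The desmosomal cadherins had large values in some tumors and were listed at 0 or 1 in others. Desmoglein 2 (DSG2), the desmoglein of simple epithelia and heart, had deposited values of 1, 1 and 7356 in NLS-2SA-YAP1 replicates 1, 2 and 3. In YAP1-MAML2-v2 replicates 1 to 7 it had 0, 0, 5821, 0, 0, 3299 and 18295. It was therefore above 1 in 1 of 3 and in 3 of 7 libraries, at 92.7 to 433 CPM. Desmocollin 2 (DSC2), the partner of desmoglein 2, had 0, 1 and 0 with NLS-2SA-YAP1, against 1, 847, 1158, 685, 505, 1 and 6007 with YAP1-MAML2-v2. It was at 0 or 1 in all 3 NLS-2SA-YAP1 libraries and above 1 in 5 of the 7 others, at 16.7 to 142 CPM. Desmocollin 3 (DSC3), which is typical of basal keratinocytes, had 7701 in the intra ventricular library, or 182 CPM, and at most 1 in the other 9.

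PERP, a tetraspan membrane protein of desmosomes and a target of p53 and p63, had deposited values of 1, 2975 and 0 in NLS-2SA-YAP1 replicates 1, 2 and 3. With YAP1-MAML2-v2 it had 5679, 0, 5384, 2356, 2236, 4205 and 10086. It was above 1 in 1 of 3 NLS-2SA-YAP1 libraries and in 6 of 7 YAP1-MAML2-v2 libraries, at 66.8 to 239 CPM.

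Every library listed at least 1 of these 6 members at 0 or 1. NLS-2SA-YAP1 replicate 1 did so for 5 (DSP, DSG2, DSC2, DSC3 and PERP), and replicates 2 and 3 for 3 each. YAP1-MAML2-v2 replicate 3 did so for DSC3 alone, and replicate 7 for PKP1 alone. Over all 1662 genes with such a gap, NLS-2SA-YAP1 replicate 1 was at 0 or 1 in 31.4%, and the other libraries in 18.2% to 54.8%. Whether these values reflect absent transcripts or a step of the authors' processing was not tested.

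**Figure D2:**
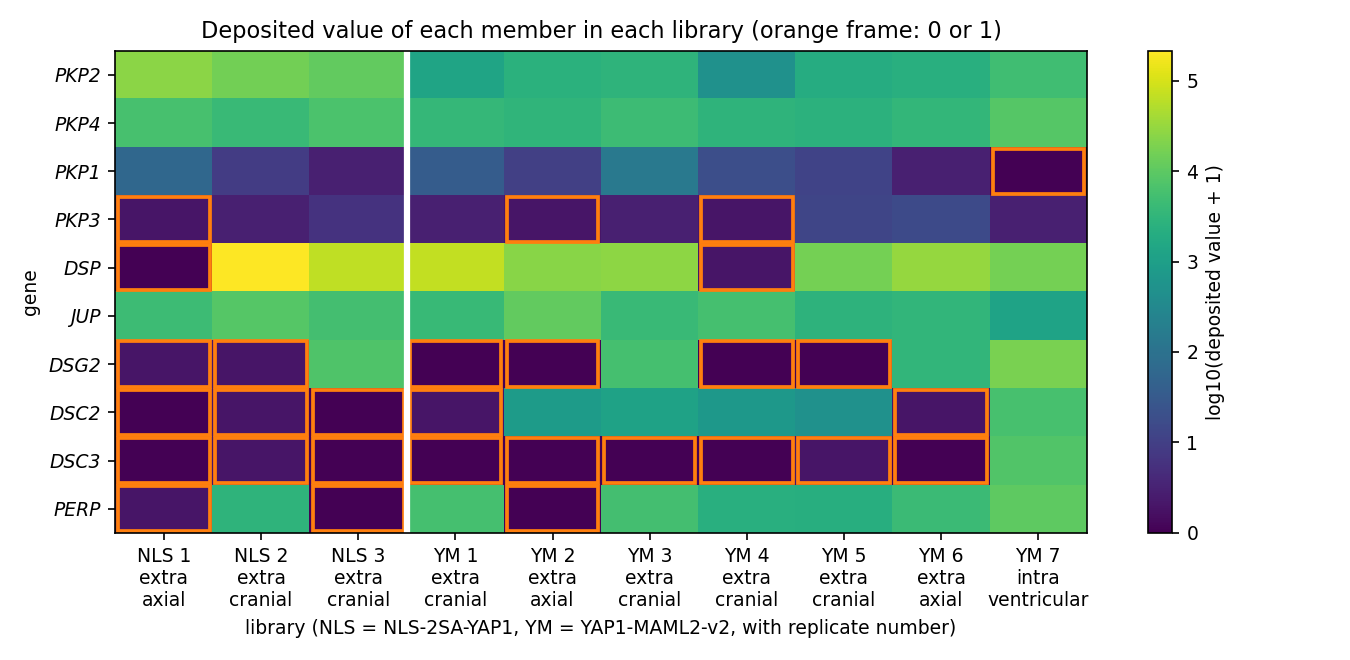
Deposited value of each member in each library, shown as log10(value + 1) by colour, with NLS-2SA-YAP1 libraries left of the white line and orange frames on values of 0 or 1. PKP2, PKP4 and JUP have no frame, and NLS-2SA-YAP1 replicate 1 is framed for DSP, DSG2, DSC2, DSC3 and PERP.

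Of the 9 members other than PKP2, 7 were tested between the constructs and none was called by edgeR (adjusted p = 0.232 to 0.984). The background was 2 of 13707 genes called, or 0.0146%. PKP4 and DSC2 had an unadjusted p under 0.05, as had 13.1% of all genes tested. DESeq2 called DSC2 lower with NLS-2SA-YAP1 (DESeq2 adjusted p = 0.000234), in a fit that called 685 genes, or 5% of those tested. limma-voom, which called 0.693%, and limma on log2 CPM, which called 0.0292%, called no member. PKP3 and DSC3 did not pass the filter on low values.

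The rule for the members did not use the source region, so extra axial and extra cranial tumors were compared with tests. PKP2 stood at 615, 65.2 and 64.4 CPM in the 3 extra axial libraries, and at 14.1 to 539 CPM (median 69.6) in the 6 extra cranial libraries. The single high extra axial library was the NLS-2SA-YAP1 tumor, and the groups overlapped. The log2 fold change with construct as a term was 0.49 (SE 0.47, edgeR adjusted p = 1). Within YAP1-MAML2-v2 the extra axial mean of 64.8 CPM (n = 2) stood against an extra cranial mean of 47.8 CPM (n = 4).

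PKP4 did not differ beyond the spread either (log2 fold change -0.15, SE 0.25, edgeR adjusted p = 1). Nor did JUP (log2 fold change 0.22, SE 0.49, edgeR adjusted p = 1), whose sign turned to -0.66 without YAP1-MAML2-v2 replicate 2 and to -0.13 with limma-voom. Of the 8 members tested by region, edgeR called 0, with 0 at an unadjusted p under 0.05, and DESeq2, limma-voom and limma on log2 CPM called 0. Over all genes edgeR called 0%, with 3.01% at an unadjusted p under 0.05, and DESeq2 called 0.226%. No member separated the extra axial from the extra cranial libraries, which 0.387% of genes did with extra axial on top and 0.503% with it below.

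The intra ventricular tumor, YAP1-MAML2-v2 replicate 7, takes no part in that contrast and stood apart in several members. It had the highest level of all 10 libraries for PKP4 (202 CPM, next 166), DSG2 (433 CPM, next 185), DSC2 (142 CPM, next 29.3), DSC3 (182 CPM, next 0.0342) and PERP (239 CPM, next 169), and the lowest for JUP. It also held the most astrocyte transcripts, with a summed level of 1986 CPM against 39.1 to 174 CPM in the others, and a GFAP level of 1204 CPM. Its summed macrophage markers were 1215 CPM against 199 to 585 CPM in the others, and its endothelial markers 846 CPM against 142 to 526 CPM. Of the 4 genes of the neuron list, SNAP25, SYT1 and RBFOX3 were highest there too, at 39.8, 18.6 and 12.3 CPM. TUBB3 was lowest there, at 360 CPM. The summed neuron markers were 430 CPM there, within a range of 379 to 1072 CPM over all 10 libraries. Its summed arachnoid and meningeal markers reached 10862 CPM against 1094 to 5728 CPM in the others. PTGDS made 8542 CPM of that sum, and was next highest in NLS-2SA-YAP1 replicate 1 at 2791 CPM. The intra ventricular tumor is 1 library, and the part of these cells in its desmosome values was not tested.

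Per length, the mean over the 10 libraries put DSP first, then PERP, PKP2, JUP, PKP4, DSG2, DSC2, DSC3, PKP1 and PKP3. This order pools the constructs, and PKP2 alone averaged 88.9 ± 33.2 CPM per kb with NLS-2SA-YAP1 (SD, n = 3) and 11.6 ± 5.82 with YAP1-MAML2-v2 (SD, n = 7). Some means rest on 1 library: without YAP1-MAML2-v2 replicate 7 that of DSC3 was 0.00138 in place of 3.38, that of DSC2 1.85 in place of 4.36 and that of DSG2 5.71 in place of 10.4. Without NLS-2SA-YAP1 replicate 2 that of DSP was 78.4 in place of 146. With the longest transcript as length PKP2 had 63.6 CPM per kb and stood above PERP, at 46.3. PKP2 had 34.8 ± 40.8, JUP 22.1 ± 13.3 and PKP4 21.4 ± 7.11 CPM per kb of exon (SD, n = 10). DSP had a median of 67.0 and a range of 0 to 757 CPM per kb, and PERP a median of 44.9 and a range of 0 to 122. Neighbours in this order were not separated library by library: DSP was above PERP in 6 of 10 libraries, PERP above PKP2 in 6, PKP2 above JUP in 4 and JUP above PKP4 in 3. PKP4 was above DSG2 in 9 of 10. By the median the order was DSP, PERP, PKP4, JUP and PKP2, since PKP2 is high in 3 libraries only. By that summary DSC2 followed at 1.58, and DSG2 stood at 0.0035.

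**Figure D3:**
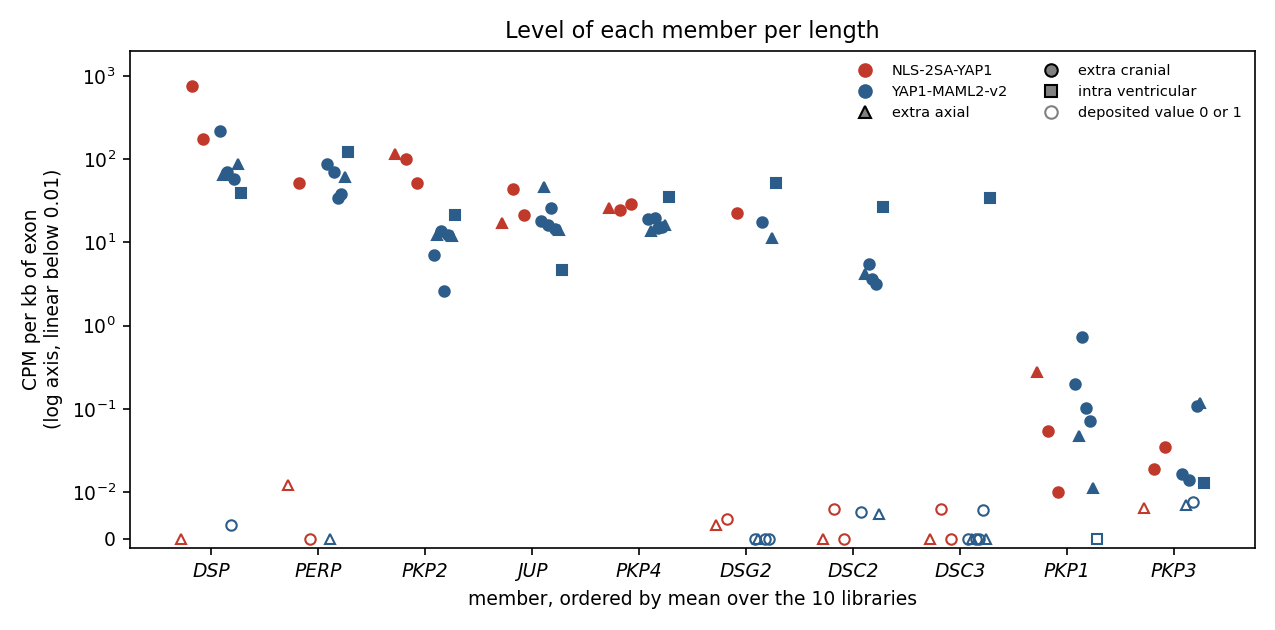
Level of each member in CPM per kb of exon (log axis, linear below 0.01), ordered by the mean over the 10 libraries, with NLS-2SA-YAP1 in red left of YAP1-MAML2-v2 in blue, shapes for the region and open symbols for deposited values of 0 or 1. PKP1 and PKP3 stay below 1 CPM per kb, and DSP runs between 0 and 757.

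Desmosomal cadherins outside the 10 genes were not seen: DSG1, DSG3, DSG4 and DSC1 were at 0 or 1 in all 10 libraries. These belong mostly to stratified epithelia. Keratinocyte markers were mixed. KRT5 was at most 2.11 CPM and LOR at most 0.189 CPM, while KRT10 lay between 17.1 and 102 CPM over the 10 libraries. KRT14, also on this list, lay between 22.0 and 49.0 CPM with NLS-2SA-YAP1 and between 0 and 20.7 CPM with YAP1-MAML2-v2. TP63 lay between 1.58 and 46.8 CPM with NLS-2SA-YAP1 and between 0.0284 and 84.5 CPM with YAP1-MAML2-v2. The summed level of 8 keratinocyte markers was 68.9 to 117 CPM with NLS-2SA-YAP1 and 27.6 to 116 CPM with YAP1-MAML2-v2.

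Among the filaments that desmosomes can hold, vimentin (VIM) stood at 10208.6, 11025.5 and 16576.7 CPM with NLS-2SA-YAP1, in replicate order, and 1917.5 to 13672 CPM with YAP1-MAML2-v2. The VIM difference of 0.91 on the log2 scale (SE 0.50) was not called (edgeR adjusted p = 0.476). KRT8 and KRT15 were at 0 or 1 in all 10 libraries. KRT18 was at 0 or 1 in all 3 NLS-2SA-YAP1 libraries and in 3 of the YAP1-MAML2-v2 libraries, and at 134 to 289 CPM in the other 4. DESeq2 called it lower (adjusted p = 0.000517) and edgeR did not (adjusted p = 0.302). KRT14 lay at 49.0, 22.0 and 31.6 CPM with NLS-2SA-YAP1 and at 0 to 20.7 CPM with YAP1-MAML2-v2, without overlap, as in 3.71% of genes tested, and alone among the junction and filament genes tested. It was called by limma-voom (adjusted p = 0.0456) and not by edgeR (adjusted p = 0.471).

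Of 46 junction and filament genes beside the 10 desmosome genes, 37 were tested between the constructs. edgeR called 0 of them, with 6 at an unadjusted p under 0.05, while DESeq2 called 5 and limma-voom 1. Over all genes tested, 13.1% had an unadjusted p under 0.05, DESeq2 called 5% and limma-voom 0.693%. In the region comparison edgeR called 0, with 0 at an unadjusted p under 0.05, and DESeq2 and limma-voom called 0. The 5 plakins had 2 positive and 3 negative fold changes and a median log2 fold change of -0.08, beside -0.03 over all genes. The 11 adherens junction genes had 8 positive and 3 negative and a median of 0.16. CDH1, the E-cadherin of meningothelial cells, lay at 244, 466 and 876 CPM with NLS-2SA-YAP1 and between 30.9 and 631 CPM with YAP1-MAML2-v2 (edgeR adjusted p = 0.830). CDH2, or N-cadherin, had a log2 fold change of -2.84 (SE 0.94, edgeR adjusted p = 0.276) and was called lower by DESeq2 (adjusted p = 0.00745).

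The profile of PKP2 over the 10 libraries was set beside 11445 genes by the mean absolute difference of centred log2 CPM, whose median was 1.49. The nearest were RADIL (0.47), MPZL2 (0.48), PLEKHA6 (0.52), RHOD (0.56) and RNF144A (0.64). RADIL averaged 25.5 ± 7.23 CPM with NLS-2SA-YAP1 (SD, n = 3) and 4.14 ± 1.33 CPM with YAP1-MAML2-v2 (SD, n = 7). MPZL2, an immunoglobulin-fold adhesion protein, averaged 322 ± 162 CPM with NLS-2SA-YAP1 (SD, n = 3) and 60.2 ± 27.7 CPM with YAP1-MAML2-v2 (SD, n = 7). These genes were picked for resembling PKP2 in the same libraries, so their difference between constructs is a description. Of the other desmosome genes that stay above 1, PKP4 was at place 557 and JUP at place 5374.

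**Figure D4:**
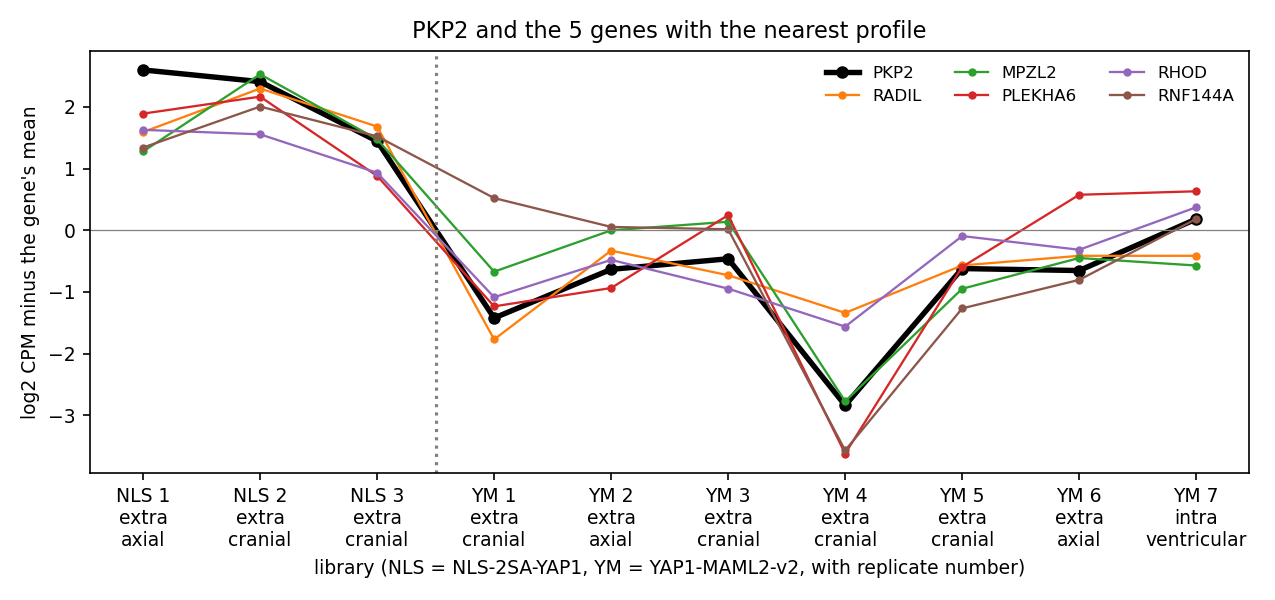
Centred log2 CPM of PKP2 (black) and of the 5 genes with the nearest profile in each library, NLS-2SA-YAP1 left of the dotted line and YAP1-MAML2-v2 right of it; lines only join values of 1 gene. All 6 genes lie above their own mean in the 3 NLS-2SA-YAP1 libraries and are lowest or near lowest in YAP1-MAML2-v2 replicate 4, where PKP2 is at 14.1 CPM.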

How the data were processed

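RNA from 10 tumors was sequenced by the authors, and each deposited file pairs a gene symbol with 1 value. Per the submitters' processing notes, HTSeq and mm10 were used, with no version or later step named there. The deposited values are whole numbers treated as estimated counts, because their low end is not that of plain read counts. Depth behind a value is therefore unknown, and no counting interval is given. Groups and regions come from the labels.

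edgeR 4.0.16 (R 4.3.3) fitted all 10 libraries, with a term for construct and one for region (filterByExpr with a minimum count of 10, TMM scaling, robust quasi-likelihood, Benjamini-Hochberg over 13707 genes, threshold 0.05). In fits with a region term the intra ventricular library takes its own term, so it adds to neither the construct nor the region fold change. DESeq2 1.42.0 and limma 3.58.1, with log2 CPM at a prior count of 2, were alternatives, as were other scalings, filters and left-out libraries. The scripts were tested on simulated data. Lengths and positions are from the GENCODE M21 annotation on mm10, which matched 15475 of 16895 symbols (91.6%), ignoring case.

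The genes, lists and tests were chosen with earlier results of these data known. Named genes are the 10 desmosome genes, list genes that were called or most abundant, the first 3 markers of each cell type list, and the 5 genes nearest to PKP2. Single genes outside that rule (such as KRT18, KRT8 and CDH2) were named after their values were seen. Levels per length were planned as means with SD. Because 6 of the genes hold 0 or 1 in some library, medians were added after the values were seen, and medians and ranges stand in place of mean and SD for those genes.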

Additional observations from a re-analysis of the deposited data

Results flagged for a closer look

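Samples far from the rest of their group were looked for in 20 pairs of gene and group, and 9 had one. A chance rate of about 1 in 20 cannot be set beside this. Several of the genes jump from 0 or 1 to large values, and the groups share libraries. PKP1 was at 3.64 CPM in YAP1-MAML2-v2 replicate 3, far above both the other YAP1-MAML2-v2 and the other extra cranial libraries. PKP3 was at 0.396 CPM in YAP1-MAML2-v2 replicate 5, far above the other extra cranial libraries. DSP was far above the other YAP1-MAML2-v2 libraries in replicate 1, at 2080 CPM, and far above the other extra cranial libraries in NLS-2SA-YAP1 replicate 2, at 7315 CPM. Within YAP1-MAML2-v2, the intra ventricular library lay far above the rest for PKP4 (202 CPM), DSG2 (433 CPM), DSC2 (142 CPM) and DSC3 (182 CPM).

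That library entered no comparison of regions and was also above each of the other 9 libraries for PKP4, DSG2, DSC2 and DSC3 at those values, and for PERP at 239 CPM. PKP1 went opposite ways by region in the 2 constructs: extra axial minus extra cranial was 1.25 CPM with NLS-2SA-YAP1 and -1.24 CPM with YAP1-MAML2-v2, a difference that was not tested.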

How the results depend on the processing

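The log2 fold change of PKP2 between the constructs stayed between 2.89 and 3.39 in 21 alternatives and that of PKP4 between 0.46 and 0.78, never called. JUP turned sign between the constructs to -0.90 without the 3 libraries with muscle transcripts and to -0.21 without NLS-2SA-YAP1 replicate 2, and between the regions to -0.13 with limma-voom and to -0.66 without YAP1-MAML2-v2 replicate 2; the cause was not tested. With each library left out in turn JUP ranged from -0.21 to 0.82 between the constructs and from -0.66 to 0.69 between the regions.

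Genes called between the constructs numbered 2 by edgeR, against 4 without a filter on low values, 685 by DESeq2 (224 higher and 461 lower), 95 by limma-voom (66 higher and 29 lower), 4 by limma on log2 CPM, 1 without genes at 0 or 1 and over 100, 0 without the 3 muscle libraries, 4 in extra cranial libraries only, and 0 to 2 with 1 library left out. Members other than PKP2 called numbered 0, and 1 by DESeq2. Genes called between the regions numbered 0, against 31 by DESeq2 and 0 to 1 with 1 library left out. With the longest transcript as length JUP moved to 44.5 CPM per kb and PKP2 to 63.6, against 22.1 and 34.8; the median, an alternative added after the data were seen, changed the order of the genes as given above.

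Libraries were correlated across the constructs in log2 CPM after each gene's mean within its construct was subtracted. Those numbered 1 to 3 in both constructs correlated at 0.17, 0.34 and -0.07, and libraries with unlike numbers at -0.24 to 0.28. With only 3 NLS-2SA-YAP1 libraries, these values cannot tell whether the numbers pair them. With the replicate block 2 genes and 0 members were called, with a log2 fold change of 3.0 for PKP2; without the pairing term, a fit added after the data were seen, 2 genes were called and PKP2 had 3.02. Since depth is unknown, a value of 0 cannot be read as absence.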
